A study of Sus scrofa with 8 samples.

Results

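The genes of extracellular matrix proteolysis examined here are the matrix metalloproteinases (MMP), the ADAM and ADAMTS proteases and the tissue inhibitors of metalloproteinases (TIMP). They were chosen by gene symbol, as every row whose name is MMP, TIMP, ADAM or ADAMTS followed directly by a number, whatever its expression, with 1 gene left out by that rule. This gave 53 of 14718 gene rows, namely 16 MMP, 3 TIMP, 15 ADAM and 19 ADAMTS genes. TIMP2 was not analysed here. The measurements are RNA-seq of left ventricular tissue from 8 pigs of a study that models long QT syndrome with gene-edited animals, 4 labelled wild type (WT replicates 1 to 4, pigs 1, 2, 4 and 5) and 4 labelled with a mutation (mutant replicates 1 to 4, pigs 6 to 9). The genotype label of mutant replicates 1 to 3 names KCNH2, which encodes the pore of the hERG potassium channel, and that of mutant replicate 4 names KCNH3, so the group is called mutant. The labels give no allele, age, sex, litter or treatment for either group and do not say whether the edited animals derive from a single clone.

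Matrix metalloproteinases are secreted or membrane-anchored zinc enzymes, made as inactive precursors, that cut collagens, gelatin, proteoglycans and basement membrane. ADAM proteins are membrane-anchored and release the outer part of growth factors, cytokine receptors and adhesion molecules, while ADAMTS proteins are secreted and bind the matrix, where they trim proteoglycans or mature procollagen. TIMPs bind the active site of these enzymes. In the heart the balance between proteases and TIMPs is known for its part in fibrosis and chamber remodelling, and TIMP4 is the inhibitor with the most heart-restricted expression.

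Values are normalized counts, a gene's reads divided by a size factor of the library. Libraries held 15.9 to 22.4 M reads (M is the SI prefix mega), but mitochondrial genes took 31.7% to 87.9% of them in WT and 15.9% to 27.5% in mutant libraries, which left 2.53 M reads of nuclear genes in WT replicate 3, 7.53 M in WT replicate 4 and 11.5 to 16.2 M elsewhere. One read of WT replicate 3 equals 4.84 normalized counts. A gene at 0 may still hold up to 3 reads, which is 14.5 normalized counts for that library and 1.83 to 3.64 for the rest. Members with at least 1 read numbered 39 in WT replicate 3 and 43 to 53 in the others. KCNH2 had 989, 559, 1909 and 148 normalized counts across WT replicates 1 to 4, and 798, 1762, 1751 and 1839 across mutant replicates 1 to 4, with overlapping groups, and a gene-level count does not check an edited sequence. Nothing in the labels says whether libraries shared a litter or a batch, so p-values measure only the spread between these samples. In bulk tissue, fewer cells of a type and less RNA per cell cannot be told apart.

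TIMP1 was lower, and TIMP4 and ADAM19 were higher, in every mutant library than in every WT library. By limma on log2(normalized count + 1), no member passed an adjusted p of 0.05 over all 11660 genes tested, as no gene of the table did (0%). The smallest adjusted p among members was 0.172, that of ADAM19. The authors' deposited table, made with DESeq2, calls 3 of the 46 members to which it gives an adjusted p, TIMP4 and ADAM19 higher and TIMP1 lower, against 4.54% of all its genes (1.32% higher and 3.23% lower). Of the 53 members, 42 passed the filter on low values, 10 normalized counts in at least 4 libraries. Of these 42, 24 had a positive log2 difference (56.9% of all genes) and 18 a negative one (43.1% of all genes), with a median of 0.19 against 0.12 for all genes. At an unadjusted p under 0.05, 6 were higher (7.06% of all genes) and 2 lower (6.8% of all genes). The listed values did not overlap in 3 higher members, TIMP4, ADAM19 and the very low ADAMTS17 (6.17% of all genes) and 1 lower member (5.22% of all genes), together 9.52% of members beside 11.4% of all genes, so separate groups were about as frequent among these genes as in the whole table. Without mutant replicate 3, and likewise without mutant replicate 4, the 6 and 2 became 2 and 1, and the 3 and 1 without overlap became 7 and 1 without WT replicate 1, 3 and 3 without WT replicate 2, 5 and 1 without WT replicate 3, 6 and 3 without WT replicate 4 and 9 and 5 without WT replicates 3 and 4. At a minimum of 100 normalized counts they were 1 and 1. Leaving out libraries can only add genes without overlap, in the whole table too. The share of all genes is not given for these settings, so these counts are not read as a result about the members. In edgeR 0 of the 42 passed and 5 had an unadjusted p under 0.05 (14.9% of all genes), 3 of them higher. The median of the members was -0.06 in edgeR (-0.02 for all genes) and, over all 53, -0.28 in DESeq2 (-0.06 for all genes). Its sign thus depended on the tool. The filter kept 7 members that reached 10 normalized counts in all 4 mutant but not in all 4 WT libraries, and 1 in the opposite case, so the counts above describe these 42 genes and not all 53. ADAM33 and ADAMTS17 are among these 7 and among the 6 higher at an unadjusted p under 0.05. ADAMTS17 is also among the 3 higher members without overlap.

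**Figure D1:**
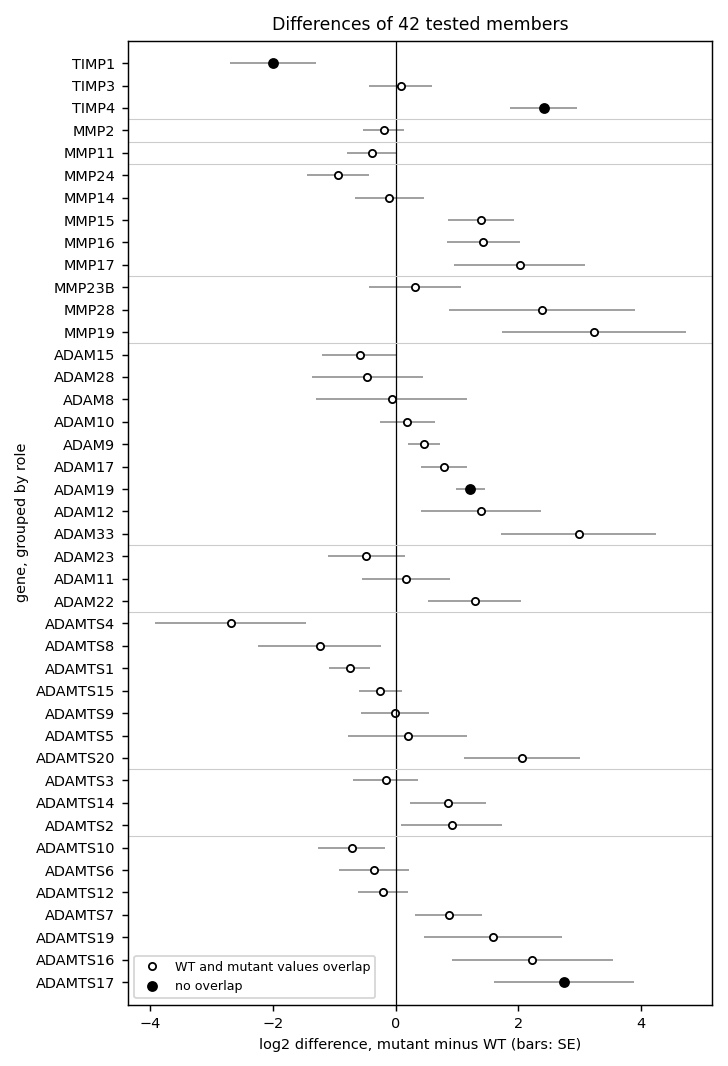
Log2 differences, mutant minus WT, of log2(normalized count + 1) for the 42 tested members, ordered by role, with SE bars; filled points mark genes whose WT and mutant values do not overlap. TIMP1 (-1.99) lies far below 0, and TIMP4 (2.41) and ADAM19 (1.22) lie above 0 with short bars, whereas the largest positive values, such as MMP19 (3.23) and ADAM33 (2.98), have long ones.

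Among the inhibitors, TIMP4 and TIMP1 stood in opposite order between the groups, and TIMP3 overlapped. TIMP4 had 42.1, 16.4, 14.5 and 29.1 normalized counts across WT replicates 1 to 4, and 203, 144, 83.7 and 111 across mutant replicates 1 to 4. The lowest mutant library thus lay well above the highest WT library. Group means were 25.5 ± 12.8 for WT and 135 ± 51.2 for the mutant group (SD, n = 4), 5.30 times as high, and the log2 difference was 2.41 ± 0.54 (SE; limma adjusted p = 0.195). TIMP4 rested on few reads, 53, 19, 3 and 24 over the WT replicates and 117 to 332 over the mutant ones. Leaving out WT replicate 3, the library with 3 reads, gave 2.19. The authors' deposited table gives TIMP4 a log2 fold change of 2.34 (adjusted p = 0.000443).

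TIMP1, a soluble inhibitor whose gene is known to respond to inflammatory cytokines, had 1180, 5992, 625 and 406 normalized counts in WT replicates 1 to 4. The mutant libraries held 247, 361, 294 and 272. WT replicate 2 was 5.08 times as high as the next library, while the lowest WT value was near the highest mutant value. Means were 2051 ± 2648 for WT and 294 ± 48.6 for the mutant group (SD, n = 4), with a log2 difference of -1.99 ± 0.70 (SE; limma adjusted p = 0.288). Leaving out WT replicate 2 gave -1.20, and the groups still did not overlap. The authors' deposited table gives TIMP1 a log2 fold change of -2.81 (adjusted p = 0.00734). In DESeq2 run on the recovered reads it was -1.33 without WT replicate 2 (adjusted p = 0.0352), and the call was lost without mutant replicate 4, the library labelled KCNH3 (-2.77, adjusted p = 0.0620).

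TIMP3, the matrix-bound inhibitor that also blocks ADAM17, had 4727, 2272, 10333 and 13206 normalized counts across WT replicates 1 to 4, and 8426, 4963, 6233 and 7010 across mutant replicates 1 to 4. All 4 mutant values fell inside the WT range, and the sign of its difference changed with the libraries and tool used. The ratio of TIMP4 to TIMP1 reads does not depend on how libraries are scaled. It was 0.0357, 0.00274, 0.0233 and 0.0716 across WT replicates 1 to 4, and 0.820, 0.398, 0.285 and 0.409 across mutant replicates 1 to 4. On the log2 scale this was -5.64 ± 2.03 for WT and -1.18 ± 0.64 for the mutant group (SD, n = 4). That the groups separate in this ratio follows from their separation in each gene, and without a correction for gene length it is no ratio of molecules. TIMP1, TIMP3 and TIMP4 lie inside the synapsin genes SYN1, SYN3 and SYN2 in the RefSeq annotation of Sscrofa11.1, and counting by strand is not stated, so reads of host and nested gene cannot be told apart. SYN2 had 0 to 4.56 normalized counts in any library and SYN3 0 to 23.1, while SYN1 had 232 to 544 with overlapping groups.

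**Figure D2:**
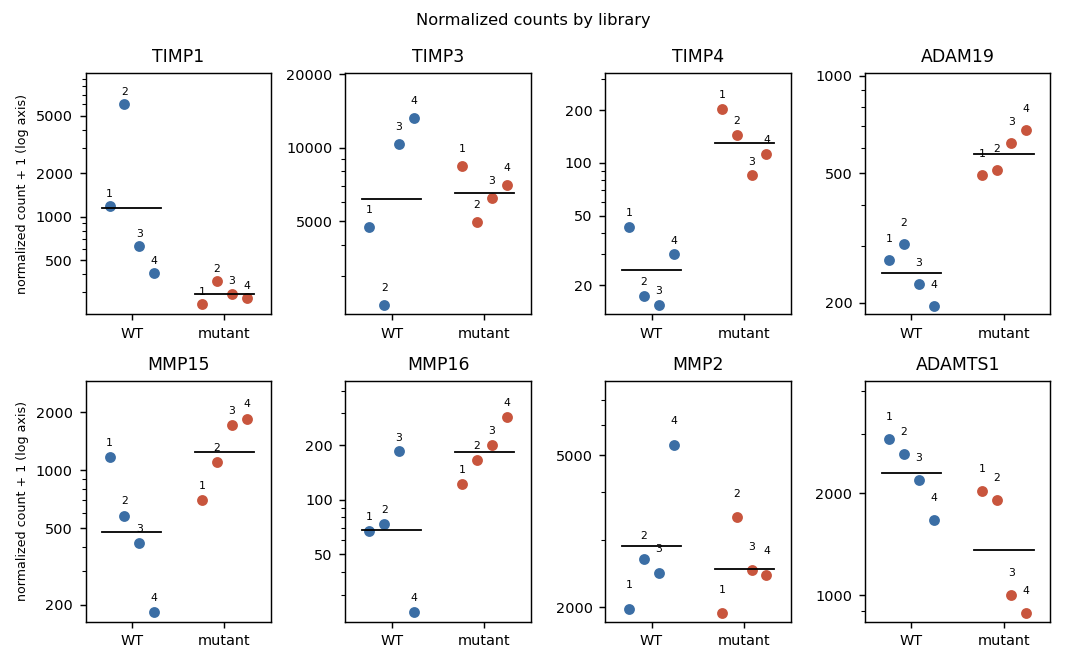
Normalized counts plus 1 on log axes for 8 members, each point a library labelled with its replicate number, WT in blue and mutant in red, with the group's mean on the log scale as a line. TIMP1 is high in WT replicate 2 (5992), TIMP4 (83.7 to 203) and ADAM19 (494 to 681) are higher in all mutant than in all WT libraries, and MMP15, MMP16, MMP2, ADAMTS1 and TIMP3 overlap.

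ADAM19, known as a sheddase of neuregulin and for its part in heart development, had the tightest groups of the called members. Its values were 269, 302, 228 and 195 normalized counts across WT replicates 1 to 4, and 494, 512, 618 and 681 across mutant replicates 1 to 4. Averages were 249 ± 46.9 and 576 ± 89.0 (SD, n = 4), a ratio of 2.32 and a log2 difference of 1.22 ± 0.24 (SE; limma adjusted p = 0.172). It stayed between 1.11 and 1.32 with each library left out in turn. The authors' deposited table gives 1.20 (adjusted p = 0.000625). ADAM19 overlaps NIPAL4 in the same annotation, and NIPAL4 had only 6.07 to 53.3 normalized counts.

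Of the other 8 ADAM genes with a protease site, none had separate groups. ADAM17, the sheddase of TNF and of EGF receptor ligands, had 89.0, 147, 92.0 and 255 normalized counts across WT replicates 1 to 4, and 183, 231, 271 and 243 across mutant replicates 1 to 4. Only WT replicate 4 reached the mutant range, and the log2 difference was 0.79 ± 0.38 (SE; limma adjusted p = 0.385). ADAM9 differed by 0.47 ± 0.26 (SE; limma adjusted p = 0.434), with WT values of 184 to 320 and mutant values of 307 to 458, and by 0.30 without WT replicate 3. ADAM10, the sheddase of Notch and cadherins, had 441 to 691 normalized counts in WT replicates 1 to 3, 2115 in WT replicate 4 and 767 to 1205 in mutant libraries. ADAM15, an ADAM of endothelium and other adherent cells, ranged within WT from 354 in replicate 2 to 3928 in replicate 4, against 872 to 990 in mutant libraries. WT replicate 4 also had the highest value of all 7 endothelial markers, with a summed level of 43234 normalized counts against 8595 to 20469 in the other WT and 16268 to 24937 in mutant libraries. The part of this in the ADAM10 and ADAM15 values was not tested. ADAM33, of smooth muscle and mesenchyme, had 65.2, 6.05, 0 and 32.8 normalized counts across WT replicates 1 to 4, and 257, 46.3, 68.6 and 71.5 across mutant replicates 1 to 4, or 2.98 ± 1.26 on the log2 scale (SE; limma adjusted p = 0.333) in which WT replicate 3 was under its floor, and 1.82 with that library left out. ADAM8, ADAM12 and ADAM28 ranged from 0 to 136 normalized counts and had adjusted p of 0.518 to 0.984 in limma.

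The ADAM genes that lack a protease site act in adhesion, mainly in neurons. ADAM11 reached 1902 normalized counts in WT replicate 2, with 175 to 632 elsewhere in WT and 230 to 928 in mutant libraries, and the sign of its difference depended on the libraries used. ADAM22 had 25.1 to 349 in WT and 104 to 268 in mutant libraries, and ADAM23 22.5 to 136 and 31.1 to 67.2. None of these 3 had an adjusted p under 0.452 in limma.

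Among the membrane-type MMPs, MMP15 and MMP16 had the smallest p of all MMP genes, without passing. MMP15, a collagenase and activator of other MMPs, had 1163, 579, 417 and 182 normalized counts across WT replicates 1 to 4, and 695, 1096, 1708 and 1851 across mutant replicates 1 to 4. WT replicate 1 lay among the mutant values. The log2 difference was 1.39 ± 0.54 (SE; limma adjusted p = 0.312), or 0.93 without WT replicate 4 and 0.60 with WT replicate 3 also left out. MMP16, which activates the gelatinase MMP2, had 66.8, 72.6, 184 and 23.1 across WT replicates 1 to 4, and 121, 165, 199 and 286 across mutant replicates 1 to 4, and here WT replicate 3 lay among the mutant values. Its log2 difference was 1.43 ± 0.59 (SE; limma adjusted p = 0.328), or 0.92 without WT replicate 4. MMP17, a membrane MMP anchored by a lipid, had at most 37 reads in a library and a difference of 2.02 ± 1.06 (SE; limma adjusted p = 0.417).

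MMP14, the main membrane activator of MMP2, had 429 to 1875 normalized counts in WT libraries, 304 in mutant replicate 1 and 1188 to 1346 in the other mutant libraries, so mutant replicate 1 lay below all 7 others. MMP24 differed by -0.94 ± 0.51 (SE; limma adjusted p = 0.427), with 74.7 to 250 in WT and 43.0 to 126 in mutant libraries. The gelatinase MMP2 had 1982, 2670, 2466 and 5327 normalized counts across WT replicates 1 to 4, and 1929, 3439, 2499 and 2435 across mutant replicates 1 to 4. The groups overlapped, with WT replicate 4 highest and mutant replicate 2 next, and the log2 difference was -0.20 ± 0.34 (SE; limma adjusted p = 0.794). MMP11, a stromelysin, had 423 to 974 normalized counts in WT and 302 to 1039 in mutant libraries. Of the remaining tested MMP genes, MMP19 was at 118 and 25.1 normalized counts in WT replicates 1 and 2, at 0 in both other WT libraries and at 51.6 to 84.4 in mutant libraries. Its log2 difference of 3.23 ± 1.49 (SE; limma adjusted p = 0.369) rested on these 2 zeros and was 0.95 in DESeq2. MMP28 and MMP23B overlapped widely, with 0 to 169 and 27.9 to 291 normalized counts.

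Of the 7 ADAMTS genes that cleave proteoglycans such as versican and aggrecan, 2 had a positive and 5 a negative difference. ADAMTS1 had 2897, 2616, 2195 and 1671 normalized counts across WT replicates 1 to 4, and 2038, 1912, 1003 and 886 across mutant replicates 1 to 4. Mutant replicates 3 and 4 lay below every WT library and the other 2 did not. The difference was -0.75 ± 0.33 (SE; limma adjusted p = 0.360). ADAMTS4 had 729, 10545, 426 and 120 normalized counts across WT replicates 1 to 4, and 28.1, 305, 128 and 199 across mutant replicates 1 to 4. Its difference of -2.69 ± 1.24 (SE; limma adjusted p = 0.368) shrank to -1.45 when WT replicate 2 was left out. The authors' deposited table gives ADAMTS4 a log2 fold change of -4.16 but no p-value, and DESeq2 without its outlier cutoff called it (adjusted p = 0.0383), whereas without WT replicate 2 it did not (-1.36, adjusted p = 0.325). ADAMTS20 went the other way, at 2.06 ± 0.95 (SE; limma adjusted p = 0.368), with 6.07 to 147 in WT and 103 to 236 in mutant libraries, and was 1.25 without WT replicate 4. ADAMTS5, ADAMTS8, ADAMTS9 and ADAMTS15 had adjusted p of 0.568 to 0.998 in limma.

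ADAMTS2, which removes the amino-terminal propeptide of fibrillar procollagens, had 772, 285, 620 and 55.8 normalized counts across WT replicates 1 to 4, and 195, 528, 972 and 983 across mutant replicates 1 to 4. The related ADAMTS14 had 25.5 to 77.5 and 36.7 to 179, while ADAMTS3 reached 178 and 130. All 3 overlapped (limma adjusted p = 0.525 to 0.898). The summed fibroblast markers varied over the same libraries, 48682, 9445, 117649 and 7433 normalized counts across WT replicates 1 to 4, and 28549, 38717, 74050 and 71853 across mutant replicates 1 to 4, so that WT replicates 2 and 4 were the lower WT libraries in both this sum and ADAMTS2. The part of this in the ADAMTS values was not tested. ADAMTS7, which degrades the cartilage protein COMP, had 220 to 1273 in WT and 668 to 1554 in mutant libraries (log2 difference 0.86, or 0.40 without WT replicate 4, limma adjusted p = 0.477). ADAMTS17, linked to microfibrils, had a very low level, 9.54, 10.4, 0 and 0 normalized counts across WT replicates 1 to 4, and 11.6, 18.2, 36.5 and 25.8 across mutant replicates 1 to 4. The listed values do not overlap, but WT replicate 2 had 12 reads and mutant replicate 1 had 19, and the floor of WT replicate 3 (14.5) lies above mutant replicate 1, so the separation is not established. The log2 difference was 2.75 ± 1.14 (SE; limma adjusted p = 0.328). The other 5 tested ADAMTS genes, ADAMTS6, ADAMTS10, ADAMTS12, ADAMTS16 and ADAMTS19, had adjusted p of 0.452 to 0.826.

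**Figure D3:**
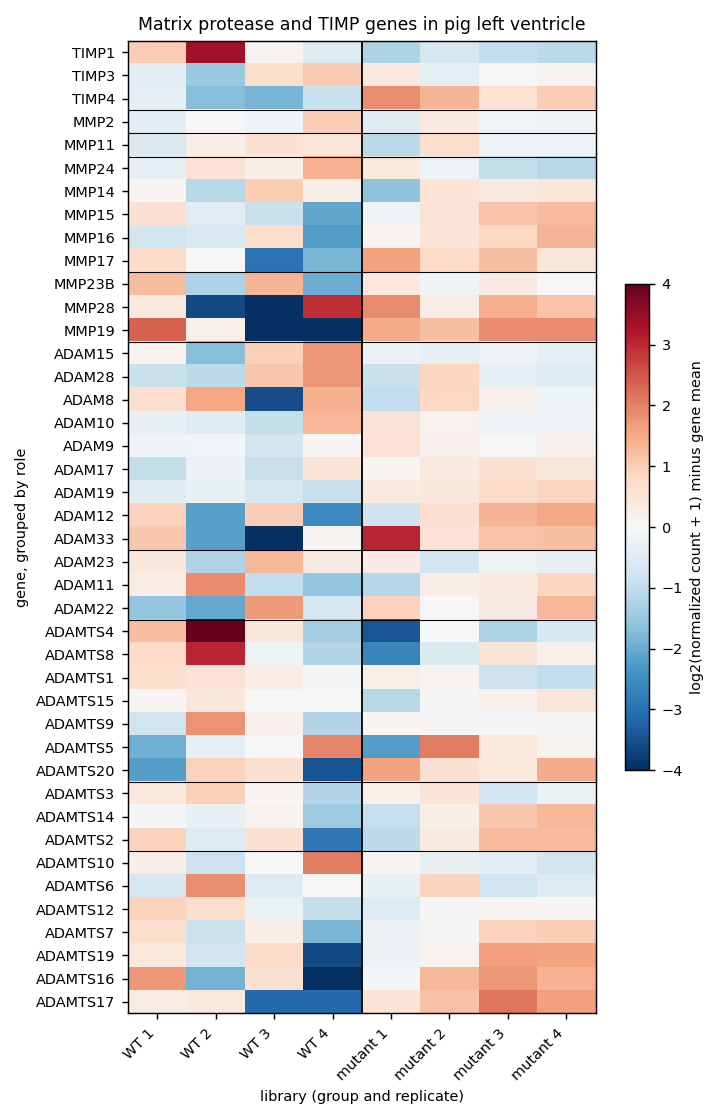
Each cell is the log2(normalized count + 1) of a tested member in a library minus that gene's mean over the 8 libraries (red above, blue below, colours ending at 4 in either direction); lines separate WT from mutant libraries and roles from each other. Dark blue cells in WT replicates 3 and 4 are members at or near 0, and dark red cells in the WT replicate 2 column mark TIMP1, ADAMTS4 and ADAMTS8.

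WT replicate 2 stood apart in a small set of members. Of the 42 tested, 4 were above 3 times any other library there, TIMP1, ADAMTS4, ADAMTS8 and ADAMTS9, a property of 0.849% of all genes in that library. These 4 were named after their values were seen. ADAMTS4 was 14.5 times, ADAMTS8 4.88 times and ADAMTS9 3.05 times the next library. Cytokines of the IL-6 family are known inducers of TIMP1. The list of inducers and their signalling genes also holds genes outside that family, such as JUNB and TGFB1. Of its 12 tested genes, 9 were highest in WT replicate 2 (12.3% of all genes). IL6 had 3077 normalized counts there and at most 8.49 in any other library. LIF had 1999 against at most 23.8, SOCS3, a feedback inhibitor of this signalling, 5388 against at most 1143, and the receptor gene OSMR 4315 against at most 1336. The same library had the highest summed neutrophil markers, 2436 normalized counts from the 6 of 10 listed markers in the table. The other WT libraries held 117 to 237 and mutant libraries 32.4 to 380. Most of the sum in WT replicate 2 was S100A12 (1220) and S100A8 (773). MPO was at 0 in WT replicate 2, and ELANE, at 23.3 there, was highest in WT replicate 3 (87.2). S100A9, CXCR2, CXCR1 and CTSG were not analysed here. The gelatinase MMP9, carried in neutrophil granules, had 102 normalized counts in WT replicate 2 and 126 in WT replicate 4. The part of inflammatory signalling or neutrophils in these values was not tested.

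**Figure D4:**
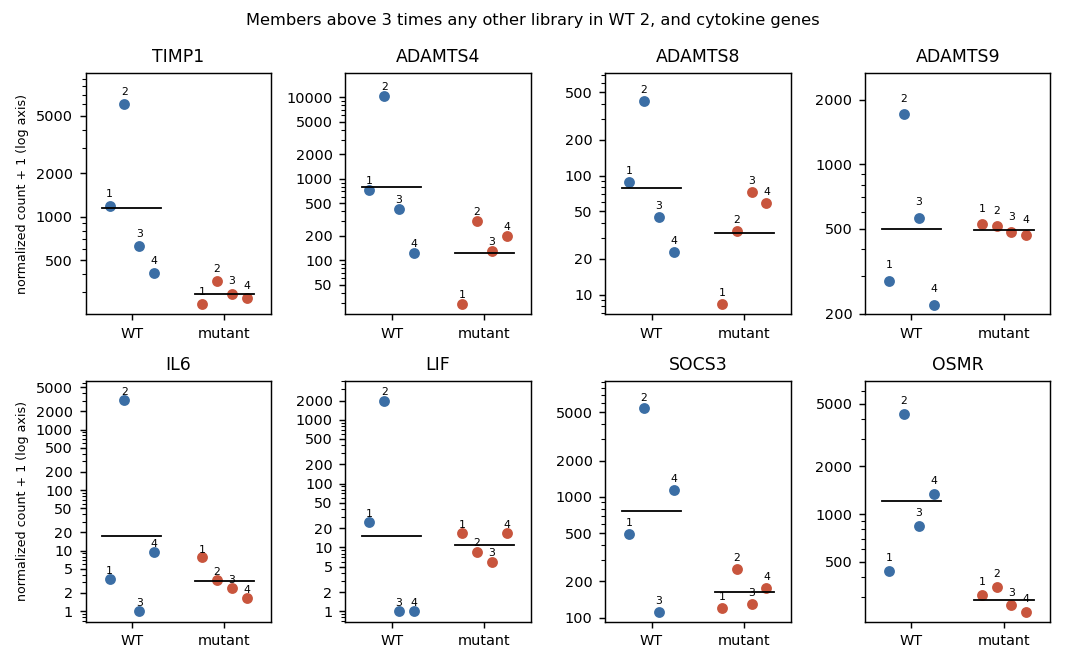
Normalized counts plus 1 on log axes by library (WT blue, mutant red, replicate numbers beside the points, lines the group means on the log scale) for the 4 members above 3 times any other library in WT replicate 2 and for 4 genes of IL-6 family signalling. WT replicate 2 is the top point in all 8 panels, and in TIMP1 and OSMR every mutant library also lies below the other 3 WT libraries.

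Genes that activate, assist or are cut by these proteases were given by lists. Of 64 tested genes on 9 such lists, 21 had a positive (56.9% of all genes) and 43 a negative difference (43.1% of all genes), and none passed limma. The authors' deposited table calls 1 higher (1.32% of all genes) and 8 lower (3.23% of all genes) of 71. Plasminogen activation genes, which switch on MMP precursors, had negative differences in 5 of 5 tested members. PLAT, the tissue-type plasminogen activator, had 1011, 2011, 596 and 3916 normalized counts over the WT replicates and 421 to 715 over the mutant ones, a log2 difference of -1.44 ± 0.51 (SE; limma adjusted p = 0.290). It is lower by the authors' deposited table. The list of inducers of TIMP1 and MMP genes, which also holds genes of their signalling, had negative differences in 12 of 12 tested genes (43.1% of all genes). As given above, 9 of these 12 were highest in the single library WT replicate 2 (12.3% of all genes), so the 12 are not read as separate group differences. JUNB, a subunit of AP-1, had 1037 to 6083 normalized counts in WT and 206 to 524 in mutant libraries (-2.60 ± 0.53, SE; limma adjusted p = 0.172). FOS, its partner, differed by -2.55 ± 0.64 (SE; limma adjusted p = 0.217) and overlapped. The authors' deposited table calls 5 genes of this list lower (3.23% of all genes), JUNB, FOS, FOSB, OSMR and the feedback inhibitor SOCS3, the last 3 named after their values were seen.

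Shed substrates had negative differences in 9 of 10 tested members. TNFRSF1B, a TNF receptor released by ADAM17, had 896 to 2775 normalized counts in WT and 597 to 858 in mutant libraries (-1.15 ± 0.39, SE; limma adjusted p = 0.273; lower in the authors' deposited table), and TNFRSF1A differed by -0.59 ± 0.30 (SE; limma adjusted p = 0.403). Partners of ADAM10 and ADAM17 had 3 positive and 5 negative differences. RHBDF1, the iRhom that carries ADAM17 to the cell surface, had 597 to 998 in WT and 395 to 558 in mutant libraries (-0.81 ± 0.24, SE; limma adjusted p = 0.243), opposite in sign to ADAM17 itself, and TSPAN15 differed by -0.55 ± 0.41 (SE; limma adjusted p = 0.546). ADAMTS-like genes, which encode matrix proteins without a protease domain, had 3 positive and 3 negative. ADAMTSL1 had 67.8 to 120 in WT and 141 to 589 in mutant libraries (1.52 ± 0.46, SE; limma adjusted p = 0.240) and is the only listed pathway gene that the authors' deposited table calls higher, and ADAMTSL5 differed by 0.56 ± 0.29 (SE; limma adjusted p = 0.417).

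The other lists held no gene that the authors' deposited table calls. Proprotein convertases, which activate ADAM and membrane-type MMP precursors, had 1 positive and 3 negative differences, PCSK6 at 0.94 ± 0.41 (SE; limma adjusted p = 0.354) and PCSK7 at -0.25 ± 0.37 (SE; limma adjusted p = 0.763). Other matrix proteases had 5 of each, with HTRA3 at 0.62 ± 0.37 (SE; limma adjusted p = 0.452) and the cathepsin CTSL at -1.62 ± 1.07 (SE; limma adjusted p = 0.493). Matrix substrates had 7 positive and 1 negative, with the basement membrane genes HSPG2 at 0.56 ± 0.30 (SE; limma adjusted p = 0.424) and NID1 at 0.51 ± 0.50 (SE; limma adjusted p = 0.635). The membrane inhibitor RECK differed by 0.19 ± 0.31 (SE; limma adjusted p = 0.778).

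The 8 of 9 cardiomyocyte markers in the table summed to 439322 to 592196 normalized counts in WT and 675587 to 729318 in mutant libraries, with no defining marker at 0, which checks the labelled tissue. Of these markers 6 had a positive and 2, TNNT2 and TNNI3, a negative difference, and ACTC1 was at 1752 in WT replicate 4 against at least 32209 elsewhere. The separation of the sums rested on MYH7, the slow myosin heavy chain: without it, a choice made after seeing the data, they were 305602 to 496763 in WT and 389826 to 495825 in mutant libraries and overlapped. The mitochondrial share was lower in every mutant than in every WT library, the order of TIMP1 and the opposite of TIMP4 and ADAM19. The part of myocyte content or of the mitochondrial share in the 3 genes was not tested. Macrophage markers summed to 896 to 4948 in WT and 1593 to 4364 in mutant libraries, smooth muscle and pericyte markers to 8573 to 34154 and 11947 to 19818, and T and NK cell markers to 34.2 to 110 and 43.7 to 62.9, each with the mutant range inside the WT range. Mast cell markers (2 of 4 in the table) summed to 0 to 235 and 84.8 to 172. Erythroid markers (3 of 5) summed to 17345, 31405, 29014 and 49.7 across WT replicates 1 to 4, and to 2500 to 2959 in mutant libraries. Only WT replicate 4 thus lay below the mutant libraries. The part of blood content in the member values was not tested.

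**Figure D5:**
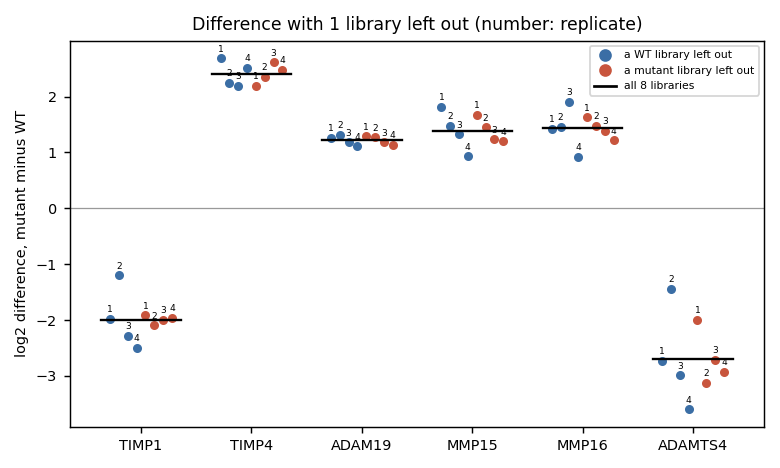
Log2 difference, mutant minus WT, from limma with each library left out in turn (points, blue for a WT and red for a mutant library, numbered by replicate) and with all 8 (line) for 6 members. ADAM19 moves least (1.11 to 1.32), TIMP4 lies between 2.19 and 2.68, and TIMP1 (-1.20) and ADAMTS4 (-1.45) come closest to 0 without WT replicate 2.

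The 11 members under the filter had at most 118 reads in a library, and 10 of them had a higher mean in WT. The most abundant was MMP9, with 3, 118, 0 and 104 reads across WT replicates 1 to 4, and 0, 33, 5 and 13 across mutant replicates 1 to 4. The macrophage elastase MMP12 had 5, 23, 0 and 8 reads across WT replicates 1 to 4, and 0 to 2 across the mutant ones. ADAMTS13, the protease of von Willebrand factor, had 43 reads in WT replicate 4 and 1 to 11 elsewhere. MMP25 had at most 36 reads, ADAMTS18 14, MMP13 11, ADAM7 8, and MMP3 and ADAM32 6 each. The collagenase MMP1 and the germ cell gene ADAM29 had at most 2 and 3 reads. These genes were left out of the limma fit by the filter. Fitted with no filter, the members at an unadjusted p under 0.05 were 6 higher and 3 lower, against 6 and 2 with it, and DESeq2 without WT replicate 3 called MMP12.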

How the data were processed

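Polyadenylated RNA of left ventricular tissue was sequenced, per the labels' protocols. The deposited table holds 1 row per gene with 8 columns of signal, which are normalized counts, and the authors' mean. The authors' log2 fold change and its error stand beside them, with the Wald score and a p-value raw and adjusted, per the file headers. The submitters' processing notes name DESeq2 and the build GRCh38, although the samples are pig. No coordinates are printed. The sources used here do not state aligner, counter, annotation or strand setting. All values were whole multiples of 1 read (100% within 1e-06 reads), so whole reads were recovered. Of 14720 rows, 2 name an annotation source, held 0.392% to 0.853% of reads and were left out.

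Differences come from limma 3.58.1 (R 4.3.3, trended robust prior) on log2(normalized count + 1), fitted on all genes with at least 10 normalized counts in at least 4 libraries, with Benjamini-Hochberg adjustment over 11660 genes. On this scale the differences of low genes depend on the pseudocount and on zeros, and can exceed those of a count model (MMP19 3.23 against 0.95 in DESeq2). edgeR 4.0.16 and DESeq2 1.42.0 were run on recovered reads as alternatives. The chi-square per gene between libraries of a group was 12.1 or more, above sampling noise in every pair. All 53 symbols matched the RefSeq or gene name tables. Floors cover counting error only, while SD and SE values come from the spread between libraries.

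Members and lists were chosen with earlier results of these data known. Named members are TIMP1, TIMP4, ADAM19, the 3 highest and the 4 smallest p of each family, those the authors' table calls, those without overlap at a mean of at least 20 and any with reads under the filter, with the 2 smallest p of each pathway list. The other tested members are given by ranges. Replicate numbers only name libraries. 1 gene that fits the symbol pattern and 1 gene of a pathway list that fits the naming rule are not reported here.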

Additional observations from a re-analysis of the deposited data

Results flagged for a closer look

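Among the 42 group values of the 21 named members, each a group of 4 libraries, 1 had a library far from the other 3. In the mutant group MMP14 was lowest in replicate 1, at 304 normalized counts against 1188, 1281 and 1346, and the gap to its neighbour took up 0.916 of the group's range on the log2 scale. Chance alone flags about 1 in 20 such groups.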

How the results depend on the processing

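Over 20 other settings and 21 named members, 387 of 415 differences kept their direction and their side of the threshold, 5 passed where the reported one did not, and 23 changed sign. TIMP1 and ADAM19 kept their direction in all 20, and TIMP4 in the 19 that tested it (it did not pass the minimum of 100). The number of genes called was 0 as reported, 3 after quantile rescaling, 92 with array quality weights, 12 without WT replicates 3 and 4, 582 in DESeq2 and 0 to 3 with each library left out. Members called were 0, 2 with array quality weights (ADAM19 at 1.22, TIMP1 at -2.80) and 3 in DESeq2. In DESeq2 the count of 3 was 2 to 7 with each library left out, 8 without WT replicates 3 and 4 and 4 without the outlier cutoff, settings chosen after seeing the data. All genes called were 128 to 1027, 698 and 637 in these settings, against 582. ADAMTS4 was called in DESeq2 without WT replicate 3 (-4.53) or without WT replicates 3 and 4 (-5.12). The 6 higher and 2 lower members at unadjusted p under 0.05 became 14 and 4 with weights, 7 and 5 without WT replicates 3 and 4, 6 and 4 in DESeq2, 3 and 2 in edgeR or with a minimum of 100, and 2 and 1 without mutant replicate 3 or 4. Members without overlap, 3 and 1, became 7 and 1 without WT replicate 1, 3 and 3 without WT replicate 2, 5 and 1 without WT replicate 3, 6 and 3 without WT replicate 4, 1 and 1 with a minimum of 100, and 9 and 5 without WT replicates 3 and 4. Leaving out libraries can only add genes without overlap, in the whole table too, and the share of all genes is not given for these settings. Sign changes fell on 6 members with adjusted p of at least 0.657. With weights these were ADAM11 (-0.17), ADAM15 (0.11) and MMP14 (0.73). In edgeR and DESeq2 they were ADAM10 (-0.068 and -0.069), ADAM11 (-0.28 and -0.29) and TIMP3 (-0.19 and -0.20). Without WT replicates 3 and 4 they were ADAM11 (-1.01), ADAM15 (0.49), MMP14 (0.46) and MMP2 (0.13). With each library left out in turn the ranges were -0.088 to 0.67 for ADAM10, -0.31 to 0.83 for ADAM11, -0.49 to 0.41 for MMP14, -0.38 to 0.10 for MMP2, -0.40 to 0.44 for TIMP3. The cause was not tested. The median over all genes was 0.12 as reported, 0.02 after quantile rescaling, -0.02 in edgeR and -0.06 in DESeq2. The median of the members was 0.19, 0.23, -0.06 and -0.28 in the same order. In edgeR 20 of the 42 were positive and 22 negative (48.9% of all genes positive). In DESeq2, over all 53, 21 were positive and 32 negative (47.1% of all genes positive). By limma with no filter, over all 53, 26 were positive and 27 negative (56.4% of all genes positive), with a median of -0.003. The sign of the members' median thus depended on filter and tool.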

Other observations

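The members below were singled out after their values were seen. Single libraries other than WT replicate 2 also led some members. ADAM33 was 3.59 times as high in mutant replicate 1 as in the next library, and ADAMTS10, a protease linked to fibrillin microfibrils, was 3.55 times as high in WT replicate 4, at 989 normalized counts. Mutant replicate 1 was the lowest library for 8 of the 42 tested members, or 19.0% (14.7% of all genes), and the highest for 5, or 11.9% (18.6% of all genes). Mutant replicate 2 was the lowest for 0 (3.6% of all genes). Of the 7 proteoglycan-cleaving ADAMTS genes, ADAMTS4, ADAMTS5, ADAMTS8 and ADAMTS15 were lowest in mutant replicate 1, at 28.1, 34.8, 7.33 and 150 normalized counts. ADAMTS20 was highest in that library (236), and ADAMTS1 and ADAMTS9 were lowest in other libraries. WT replicate 4 was the lowest library for 15 of the 42, or 35.7%, against 20.1% of all genes, and the highest for 8 (21.3% of all genes). The summed normalized counts of all 53 members ranged from 22697 to 36896 over the WT replicates and from 21866 to 24839 over the mutant ones, and the groups overlapped.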
